A study of Mus musculus with 4 samples.

Results

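A set of 9 Hedgehog signalling genes was followed by RNA-seq in whole mouse pancreas at E18.5, in embryos that lacked the transcriptional repressor REST in the pancreatic epithelium and in controls. The genes were *Disp1*, *Disp2*, *Ihh*, *Ptch1*, *Smo*, *Gli1*, *Gli2*, *Gli3* and *Hhip*, among 24391 genes in the table of counts, and all 9 had a row. They were chosen by name around *Disp2*, and *Disp2* itself was selected on its higher counts in RestpKO pancreas in these same libraries. Differences between genotypes in the 9 genes are therefore given as a description, with fold changes and their errors but no p-value. Genes of the pathway outside the 9 were tested.

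Both RestpKO libraries came from embryos with Pdx1Cre and RESTLoxP/LoxP, and both control libraries from embryos with Pdx1Cre and RESTwt, so the *Cre* transgene was present in every library. All embryos had a mixed strain background with C57BL/6, and the labels do not say whether a library held 1 embryo or several. *Pdx1* drives *Cre* in the epithelium of the pancreas, and the mesenchyme keeps its *Rest* alleles. Levels are given in CPM, which are counts scaled to library size with edgeR's TMM factor. *Rest* had 12.1 and 9.16 CPM in RestpKO pancreas and 14.2 and 15.7 CPM in control pancreas, a measure that covers all exons and all cells and does not read the floxed exon by itself (log2 fold change −0.49 with a standard error of 0.23, edgeR adjusted p = 0.593). Total counts lay between 16936759 and 24134100 per library. Replicates of a genotype differed by more than sampling noise (chi-square per degree of freedom 64.9 in RestpKO and 23.2 in control). By *Xist* and Y-linked counts each genotype held 1 female and 1 male library. The labelled tissue carried its markers, with the acinar *Cpa1* at 20263 and 28473 CPM in RestpKO and 23602 and 15489 CPM in control. The intestinal *Cdx2* had 0 and 0 counts in RestpKO and 0 and 1 in control, and the gastric *Gkn1* had 2 and 3 counts in RestpKO and 0 and 0 in control. The 13 gut and stomach genes listed summed to 19.0 and 54.2 CPM in RestpKO and 39.1 and 36.2 CPM in control, most of it from *Vil1*, with 258 and 1083 counts in RestpKO and 542 and 638 counts in control. The organ was sequenced whole, so fewer cells of a type and less RNA per cell cannot be told apart.

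Hedgehog proteins are lipid-modified ligands. Dispatched proteins release them from the cells that make them, and Patched receptors on receiving cells hold the transducer Smoothened inactive until a ligand binds. Smoothened then acts through the primary cilium on the GLI transcription factors. In the mouse, the dorsal pancreas forms where *Shh* is kept off in the endoderm, and excess Hedgehog activity disturbs the organ's growth. *Ptch1*, *Gli1* and *Hhip* are themselves induced by the pathway and serve as its readouts in many tissues.

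Among the 7 members with enough counts to be tested, *Disp2* and *Gli1* lay higher in both RestpKO libraries than in both controls, *Gli3* lay lower in both, and *Ptch1*, *Smo*, *Gli2* and *Hhip* overlapped between genotypes. *Disp2* was at 42.6 ± 4.11 CPM in RestpKO and 19.5 ± 3.67 CPM in control (SD, n = 2 each). *Gli3* was at 9.62 ± 1.02 CPM in RestpKO and 17.4 ± 0.418 CPM in control. *Disp1* had no count in any library, and *Ihh* had at most 9. For comparison, 21.5% of all 14550 genes tested had both RestpKO libraries above both controls and 21.2% had both below, so that a separation of this kind was common in these libraries and singles out no member.

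**Figure D1:**
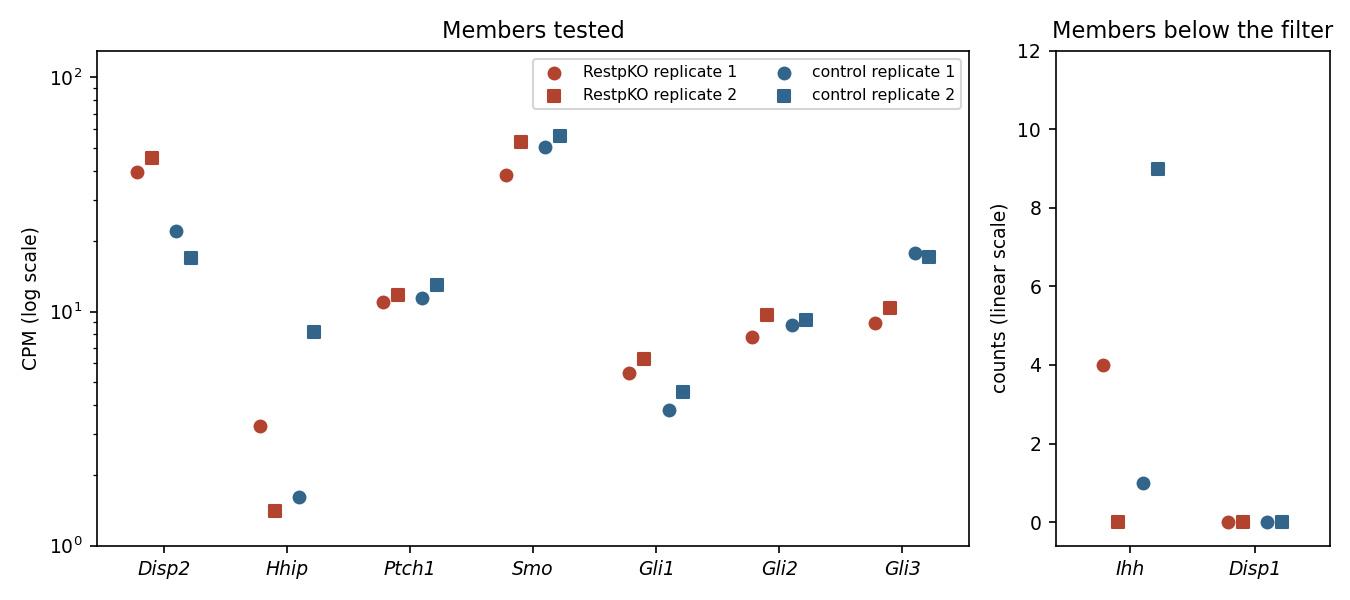
Levels of the 9 Hedgehog genes in each library, RestpKO left of control within a gene. The left panel gives CPM on a log scale for the 7 genes tested, and the right panel gives counts on a linear scale for *Ihh* and *Disp1*. *Disp2* and *Gli1* sit higher and *Gli3* lower in both RestpKO libraries, the *Hhip* value of 8.17 CPM in control replicate 2 stands above the other 3, and *Disp1* is at 0 throughout.

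The members were first ordered by their level per kilobase of exon, taken from an mm9 annotation that is not the gene set the reads were counted on. *Smo* had the highest mean level over the 4 libraries, 13.1 ± 2.04 CPM per kb (SD over 4 libraries). *Disp2* followed at 3.25 ± 1.43, *Ptch1* at 1.79 ± 0.136, *Gli3* at 1.41 ± 0.476, *Gli1* at 1.33 ± 0.281, *Gli2* at 1.29 ± 0.118, *Hhip* at 0.737 ± 0.643 and *Ihh* at 0.0709 ± 0.0817 CPM per kb. Among these 8 members the transducer was thus the most abundant per length and the ligand the least, and *Disp1*, with no count, is not in this order. Of the 7 pairs of neighbours in this order, only *Smo* over *Disp2* and *Hhip* over *Ihh* held in all 4 libraries. *Disp2* lay above *Ptch1* in 3 libraries, and in control replicate 2 it was at 1.77 against 1.98 CPM per kb for *Ptch1*. *Gli3* was at 0.928 and 1.08 CPM per kb in RestpKO, below *Gli1* at 1.45 and 1.65, and at 1.85 and 1.79 CPM per kb in control, above *Gli1* at 1.01 and 1.20.

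*Disp2* lies on chromosome 2 from 118605455 to 118637029 on the forward strand (NCBIM37, mm9). It belongs to the Dispatched family by sequence, while release of Hedgehog ligands is the known role of *Disp1*. *Disp2* was counted 855 and 998 times in RestpKO libraries 1 and 2, which is 39.6 and 45.5 CPM, and 371 and 335 times in control libraries 1 and 2, which is 22.1 and 16.9 CPM. The lower RestpKO library lay above the higher control. The log2 fold change was 1.13 (standard error 0.21), and leaving out each library in turn gave values from 0.94 to 1.33.

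Most markers of endocrine cells were higher in the same libraries as *Disp2*. The summed level of 14 endocrine genes, from hormones to secretory granule proteins and islet transcription factors, was 4989 and 7009 CPM in RestpKO and 3384 and 2265 CPM in control. All 14 lay above 0 in log2 fold change (median 0.72), against −0.00 for the median of the whole table. In 11 of the 14 both RestpKO libraries lay above both controls, beside 21.5% of all genes tested. The other 3, *Ppy*, *Neurod1* and *Isl1*, overlapped between genotypes. The marker *Ins2*, insulin, was at 1417 and 2674 CPM in RestpKO and 1008 and 735 CPM in control. By edgeR none of the 14 was called, 9 were higher at an unadjusted p under 0.05, and DESeq2 called 6. Within each library, *Disp2* was counted 7.95 and 6.49 times per 1000 counts of these 14 genes in RestpKO and 6.53 and 7.46 times in control, and these values overlapped. Set against *Chga*, the granule protein chromogranin A, *Disp2* had 0.126 and 0.124 counts per *Chga* count in RestpKO and 0.142 and 0.142 in control. Relative to the 14 genes together the genotypes thus overlapped, and relative to *Chga* both RestpKO libraries lay slightly under both controls. The study lists REST-bound regions at *Neurod1*, *Pcsk1*, *Pcsk2*, *Scg3* and *Isl1*, which are among the 14. More endocrine cells and more RNA per cell therefore cannot be told apart in these ratios. Most of the summed counts came from *Ins1*, *Ins2* and *Gcg*. Taken singly, the 14 genes had log2 fold changes from 0.17 for *Isl1* to 1.41 for *Ins1*. Their median of 0.72 lay below the 1.13 of *Disp2*, so relative to many single markers *Disp2* was higher in RestpKO. Neuron and Schwann cell genes also lay higher, with a summed level of 37.6 and 44.8 CPM in RestpKO and 22.7 and 20.3 CPM in control for 10 genes. The 9 that were tested all lay above 0 in log2 fold change (median 0.88), 4 of them at an unadjusted p under 0.05 and none called by edgeR or DESeq2. Of these genes, the Schwann cell factor *Sox10* was at 4.27 and 2.41 CPM in RestpKO and 2.02 and 1.61 CPM in control. *Disp2* was counted 1.05 and 1.01 times per count of the 10 genes in RestpKO and 0.971 and 0.833 times in control, and 5.34 and 4.92 times per count of the Schwann cell gene *S100b* in RestpKO and 4.31 and 4.79 times in control. Relative to these genes both RestpKO libraries lay slightly over both controls (log2 difference 0.20 and 0.17). The part of either cell type in the *Disp2* difference was not tested.

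**Figure D2:**
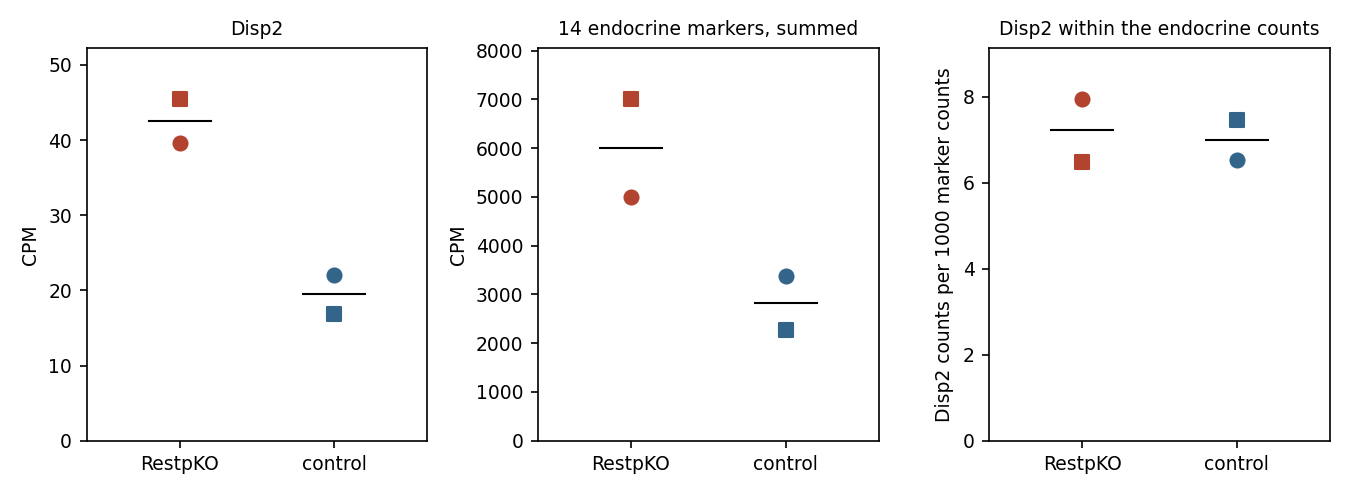
*Disp2* in CPM, the sum of 14 endocrine markers in CPM, and *Disp2* counts per 1000 marker counts, with RestpKO left of control. Circles are replicate 1, squares replicate 2 and lines the means of 2 libraries. The first 2 panels separate the genotypes, while the ratio of 7.95 and 6.49 in RestpKO overlaps that of 6.53 and 7.46 in control.

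The genes whose 4 values lay closest to those of *Disp2* were sought among 9200 genes with a mean of at least 10 CPM, by the Euclidean distance of centred log2 CPM over the 4 libraries. The 5 closest were *Gng4*, a G protein gamma subunit (distance 0.0775), *Chga* (0.180), *Sez6l2* (0.182), the prohormone convertase *Pcsk2* (0.207) and the islet amyloid polypeptide gene *Iapp* (0.237). *Gng4* was at 15.0 and 16.4 CPM in RestpKO and 8.33 and 6.00 CPM in control. Of the 5, *Chga*, *Pcsk2* and *Iapp* stand among the 14 endocrine markers. With 4 libraries such closeness is a description of these libraries only.

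*Disp1*, the Dispatched protein that frees cholesterol-modified Hedgehog from its source, was listed at 0 counts in both RestpKO and both control libraries. A count of 0 allows up to 3 counts, or 0.137 to 0.179 CPM depending on the library, as far as counting error goes. In all, 5915 genes (24.3% of the table) had no count in any library. No position or exon length of *Disp1* on mm9 was used here, so no level per kilobase and no ratio of *Disp2* to *Disp1* is given, and whether the row of *Disp1* could have received reads was not tested.

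Of the other members of the wider Patched and Dispatched family, *Disp3* (listed as *Ptchd2*) had 1 and 1 counts in RestpKO and 2 and 0 in control. *Ptchd1* was at 1.44 and 0.820 CPM in RestpKO and 2.08 and 2.77 CPM in control, the 2 RestpKO libraries lying below both controls, and did not pass the test (log2 fold change −1.11 with a standard error of 0.44, edgeR adjusted p = 0.539). The cholesterol transporter *Npc1* and the sterol sensor *Scap*, which share a sterol-sensing domain with Patched, had log2 fold changes of −0.25 and 0.24. None of the 4 tested members of this family, of 8 listed, was called.

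The ligand genes had few or no counts. *Shh* had 0 counts in all 4 libraries, under the same limits as *Disp1*. *Ihh*, on chromosome 1 from 74991891 to 74998246, had 4 and 0 counts in RestpKO and 1 and 9 in control, too few to be tested, and no difference was detectable at this depth. *Dhh*, the ligand that Schwann cells make in peripheral nerve, had 24 and 27 counts in RestpKO and 3 and 15 in control, or 1.11 and 1.23 CPM against 0.179 and 0.757 CPM. Both RestpKO libraries lay above both controls, but the difference did not pass the test (log2 fold change 1.28 with a standard error of 0.65, edgeR adjusted p = 0.618, DESeq2 adjusted p = 0.931). *Hhat*, the enzyme that adds palmitate to the ligands, was at 3.48 and 3.74 CPM in RestpKO and 2.86 and 2.82 CPM in control (log2 fold change 0.34 with a standard error of 0.31, edgeR adjusted p = 0.731).

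Among the receptors, *Ptch1* was at 10.9 and 11.8 CPM in RestpKO and 11.4 and 13.0 CPM in control. The groups overlapped, and the log2 fold change was −0.10 (standard error 0.21). *Smo* was at 38.5 and 52.9 CPM in RestpKO and 50.7 and 56.1 CPM in control, with RestpKO replicate 1 lowest and the other RestpKO library between the controls. Its log2 fold change was −0.22 (standard error 0.21), −0.01 without RestpKO replicate 1 and −0.47 without RestpKO replicate 2. *Ptch1* counts per *Smo* count were 0.284 and 0.223 in RestpKO and 0.224 and 0.232 in control. *Ptch1* lies on chromosome 13 from 63610261 to 63674474 and *Smo* on chromosome 6 from 29685694 to 29711365.

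*Hhip*, a membrane protein that binds Hedgehog ligands and competes with Patched, was at 3.25 and 1.41 CPM in RestpKO and 1.61 and 8.17 CPM in control. The 2 controls differed more from each other than the genotypes did, and control replicate 2 alone stood apart. The log2 fold change of −1.08 (standard error 0.71) became 0.53 without control replicate 2 and −1.81 without control replicate 1. No direction is therefore given for *Hhip*, which lies on chromosome 8 from 82490014 to 82581905.

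Of the 29 pathway genes listed beside the members, from ligands to regulators of the GLI factors, 27 were tested, and 8 had both RestpKO libraries below both controls and 4 had both above, beside the 21.2% and 21.5% of all genes tested. None of the 27 was called, and the 3 with the smallest p bind ligand beside Patched. *Gas1*, a membrane-anchored ligand-binding protein, was at 42.6 and 34.3 CPM in RestpKO and 58.5 and 64.4 CPM in control (log2 fold change −0.68 with a standard error of 0.19, edgeR adjusted p = 0.424, DESeq2 adjusted p = 0.247). *Cdon*, an immunoglobulin superfamily co-receptor, was at 93.9 and 94.2 CPM in RestpKO and 128 and 131 CPM in control (log2 fold change −0.46 with a standard error of 0.17, edgeR adjusted p = 0.504, DESeq2 adjusted p = 0.611). *Lrp2*, the endocytic receptor megalin, was at 4.50 and 9.34 CPM in RestpKO and 18.8 and 15.0 CPM in control (log2 fold change −1.28 with a standard error of 0.35, edgeR adjusted p = 0.424, DESeq2 adjusted p = 0.0686). In these 3 genes the genotypes did not overlap. *Boc*, the paralogue of *Cdon*, overlapped between genotypes at 19.1 and 27.1 CPM in RestpKO and 20.6 and 24.3 CPM in control, with a log2 fold change of 0.04 (standard error 0.23). *Gpc3*, a glypican that binds ligand away from Patched, was at 287 and 302 CPM in RestpKO and 389 and 321 CPM in control (log2 fold change −0.27, standard error 0.20). Without RestpKO replicate 1 *Gas1* was called lower, in a fit that called 514 genes (3.45% of those tested), 455 of them lower. *Lrp2* was called lower without control replicate 2, where 100 genes were called (0.671%), and with sex as a further term, where 247 were (1.70%).

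*Gli3*, which in the absence of ligand is cut to the main repressor of Hedgehog targets, was counted 192 and 227 times in RestpKO and 298 and 340 times in control, or 8.90 and 10.3 CPM against 17.7 and 17.1 CPM. The higher RestpKO library lay well under the lower control. The log2 fold change was −0.86 (standard error 0.21), between −0.97 and −0.75 with each library left out in turn. *Gli1*, an activator and a direct target of the pathway, was counted 118 and 137 times in RestpKO and 64 and 90 times in control, or 5.47 and 6.24 CPM against 3.81 and 4.54 CPM. Its log2 fold change was 0.49 (standard error 0.28), between 0.36 and 0.62 with each library left out. *Gli2*, the main activator among the GLI factors, overlapped between genotypes at 7.79 and 9.70 CPM in RestpKO and 8.75 and 9.18 CPM in control (log2 fold change −0.04, standard error 0.24). The 3 GLI genes thus did not share a direction.

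Ratios taken within a library do not depend on how libraries are scaled. *Gli1* was counted 0.615 and 0.604 times per *Gli3* count in RestpKO and 0.215 and 0.265 times in control, a log2 difference of 1.35. *Gli1* per *Gli2* count was 0.702 and 0.643 in RestpKO and 0.435 and 0.495 in control, and *Gli3* per *Gli2* count was 1.14 and 1.07 in RestpKO and 2.03 and 1.87 in control. Each of these ratios separated the genotypes. The ratio of *Gli1* to *Gli3* is that of *Gli1* to *Gli2* divided by that of *Gli3* to *Gli2*. With *Gli1* higher and *Gli3* lower, its log2 difference had to be the largest of the 3. The ratios restate the levels given above, and the share of all gene pairs that separate in this way was not counted. *Gli1* lies on chromosome 10 from 126766945 to 126778645 and overlaps the end of *Arhgap9* on the opposite strand. Without a stated strand setting, how reads in that overlap were assigned is not known. *Gli2* lies on chromosome 1 from 120730709 to 120950196 and *Gli3* on chromosome 13 from 15555068 to 15821859.

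**Figure D3:**
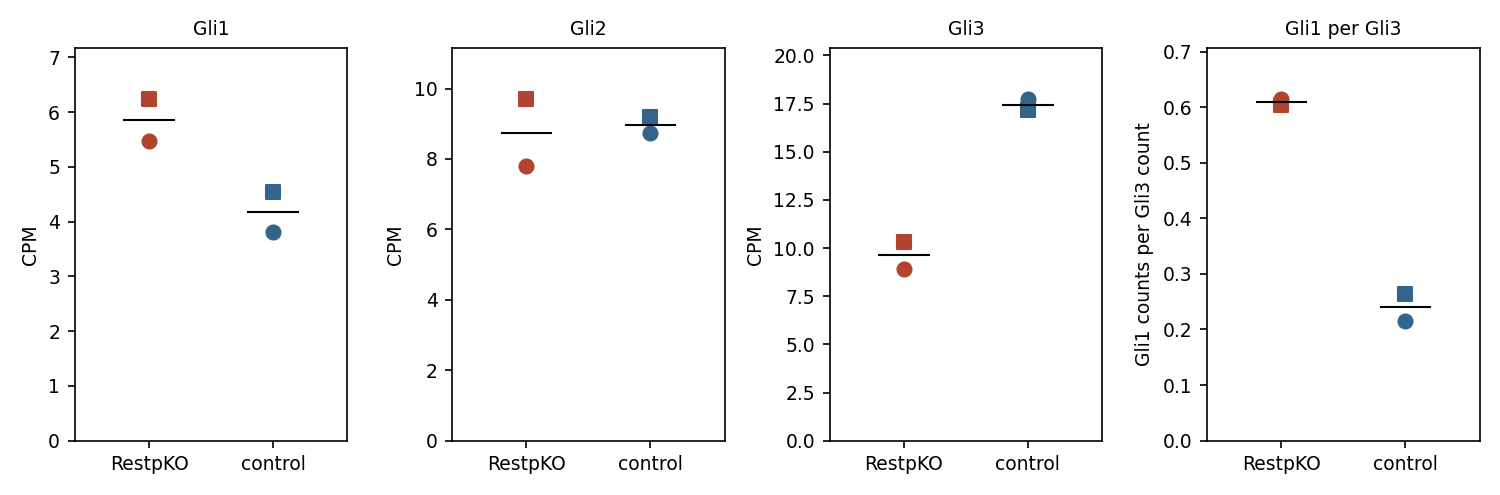
CPM of *Gli1*, *Gli2* and *Gli3* and the ratio of *Gli1* to *Gli3* counts in each library, RestpKO left of control, on axes that start at 0. Circles are replicate 1, squares replicate 2 and lines the means. *Gli1* is higher and *Gli3* lower in both RestpKO libraries, *Gli2* overlaps, and the ratio is 0.615 and 0.604 in RestpKO against 0.215 and 0.265 in control.

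Mesenchymal cells are the main recipients of Hedgehog signals in many endodermal organs, and markers of these cells were read beside the GLI genes. The summed level of 12 mesenchyme genes was 5168 and 7906 CPM in RestpKO and 9626 and 8392 CPM in control. Of the 12 genes, 11 lay below 0 in log2 fold change (median −0.35), edgeR and DESeq2 called none, and 4 were lower at an unadjusted p below 0.05. The collagen gene *Col1a1* was at 518 and 976 CPM in RestpKO and 1514 and 1399 CPM in control, while the receptor gene *Pdgfra* was at 61.0 and 61.1 CPM in RestpKO and 63.2 and 72.2 CPM in control. *Gli3* was counted 0.146 and 0.169 times per *Pdgfra* count in RestpKO and 0.281 and 0.238 times in control, and *Gli1* 0.0897 and 0.102 times in RestpKO and 0.0603 and 0.0629 times in control. Against *Pdgfra*, which differed less between genotypes than most of the 12, *Gli3* was lower (log2 difference −0.72) and *Gli1* higher (0.64) in both RestpKO libraries. *Gli3* per 1000 counts of the 12 genes was 1.72 and 1.31 in RestpKO and 1.84 and 2.04 in control, with RestpKO replicate 1 close to control replicate 1. Taken this way the log2 difference of *Gli3* was −0.37, against a log2 fold change of −0.86 in CPM. Most of the summed counts of the 12 genes came from the collagen genes *Col1a1*, *Col1a2* and *Col3a1*. Ratios to this sum therefore follow collagen RNA more than the other mesenchyme genes. *Gli1* per 1000 counts of the 12 genes was 1.06 and 0.789 in RestpKO and 0.396 and 0.541 in control, a log2 difference of 0.98. The part of mesenchymal cells in the differences of the GLI genes was not tested.

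Of the genes that pass the signal on inside the cell, none passed the test. *Sufu*, the negative regulator that binds GLI factors, was at 13.8 and 17.1 CPM in RestpKO and 15.4 and 17.2 CPM in control (log2 fold change −0.08, standard error 0.21). *Gsk3b*, a kinase that marks GLI3 for processing, was at 69.2 and 43.1 CPM in RestpKO and 72.3 and 71.8 CPM in control (log2 fold change −0.36 with a standard error of 0.24, edgeR adjusted p = 0.671), with RestpKO replicate 2 lowest. Of 10 genes induced by the pathway in other tissues, 8 were tested and none was called. *Ccnd1*, cyclin D1, was at 180 and 123 CPM in RestpKO and 108 and 126 CPM in control (log2 fold change 0.37, standard error 0.23). The log2 fold change was 0.46 for the oncogene *Mycn*, 0.26 for the WNT inhibitor *Sfrp1* and −0.86 for the mesenchymal factor *Nkx3-2* (edgeR adjusted p = 0.690, 0.731 and 0.652). All 14 genes of the primary cilium were tested and none was called. Those with the smallest p were *B9d1* (log2 fold change 0.56 with a standard error of 0.26, edgeR adjusted p = 0.588), *Dync2h1* (−0.31), *Ift122* (0.32) and *Tctn2* (0.33).

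Over the 61 genes listed for the pathway outside the 9 members, 53 were tested. In log2 fold change 26 of them lay above 0 and 27 below (median −0.00, as over the whole table). By edgeR's quasi-likelihood test none was called in either direction at an adjusted p under 0.05, and DESeq2 called none. Before adjustment 4 genes, all lower, had a p under 0.05. The 4 were *Lrp2*, *Gas1*, *Cdon* and *Ptchd1*. In the whole table edgeR called 4 of 14550 genes (0.0275%), all lower, 8.87% of genes had an unadjusted p under 0.05, and DESeq2 called 103 of 14535 genes (0.709%). With 2 libraries per genotype few genes were called at all, and the lack of a call shows neither that a gene changed nor that it did not.

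**Figure D4:**
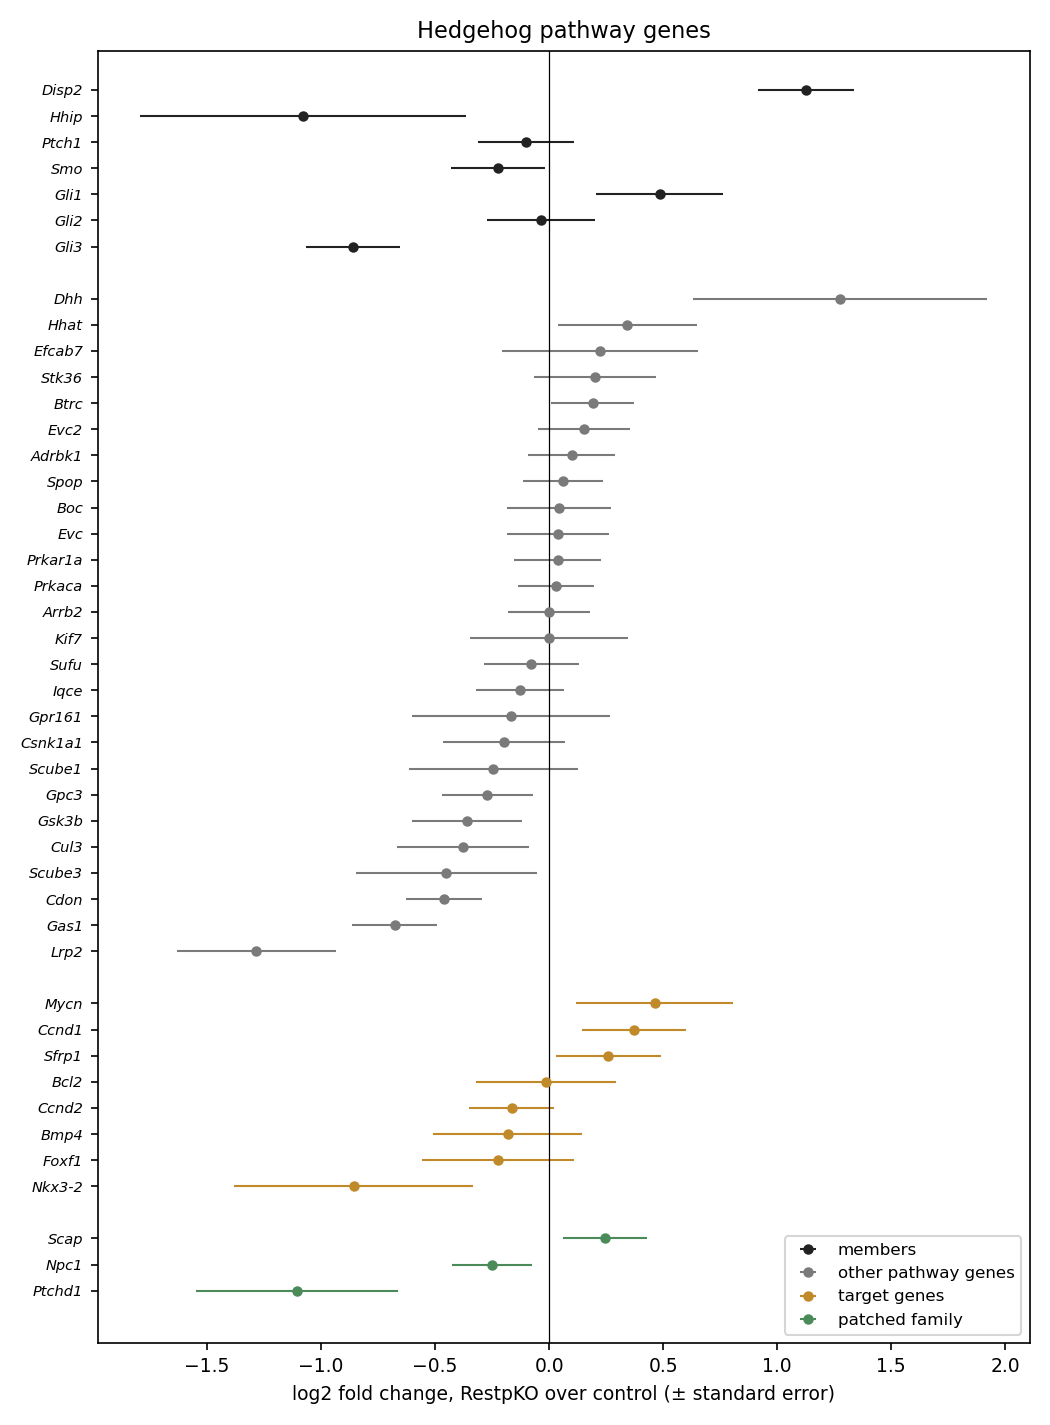
Log2 fold changes of RestpKO over control with their standard errors for the 7 members and the genes shown of the pathway, target and Patched family lists. The members stand at the top, and each other list runs from highest to lowest. *Disp2* at 1.13 and *Gli3* at −0.86 lie apart from *Ptch1*, *Smo* and *Gli2* near 0, and *Hhip* at −1.08 has a wide standard error of 0.71. Of the other pathway genes *Dhh* is the highest at 1.28 (standard error 0.65) and *Lrp2* the lowest at −1.28.

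The start sites of the members were searched for the REST element. The study reports REST bound both near to and far from gene starts, so the start sites cover only part of where it binds. Its map of REST-bound regions in the embryonic pancreas was not used here. RefSeq promoters of 300 bases (250 before to 50 after the start, GRCm38.p6) were matched by symbol for 7 of the 9 members, in 8 windows, and for *Disp2* and *Gli1* none was used. The element was taken as TTCAGCACC followed by 2 bases of any kind and GGACAGCGC, on both strands, with at most 4 mismatches in 18 letters. Of all 32851 promoters 0.481% held such a match, and of the 8 windows none did. The best stretch of each window had 6 to 8 mismatches, and 19.2% of all promoters held one with at most 6. The GLI site GACCACCCA was found in 0.253% of all promoters and in none of the 8 windows. No match says only that these letters are not in these windows. The closest stretches for *Gli3*, *Gli2* and *Ptch1*, shown because these genes carry the comparison of the GLI factors and their receptor, are given with matching letters in capitals, at chr13:15463680-15463699, chr1:119053654-119053673 and chr13:63565947-63565966, all on the reverse strand.
Gli3: TTgAGCtCCgccGcgcGCGC
Gli2: TTCgcCAgCcgaGgCAGCaC
Ptch1: agCAGCAgCagcGgCAGCcC
Each matched 12 of the 18 letters.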

How the data were processed

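RNA-seq of E18.5 pancreas was analysed in 2 RestpKO and 2 control libraries. The deposited table gives whole-number counts for each gene, which the authors made from paired-end reads aligned with STAR to mm9, keeping uniquely mapped reads and counting UCSC genes with featureCounts 1.5. The strand setting is not given in the sources used here, so how reads of overlapping genes were assigned is not known. The libraries of a genotype differ in sex by their counts, and p-values measure only the spread between these libraries. The methods of the study speak of 3 pancreas per genotype, and 2 libraries of each were analysed here.

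Genes were tested with edgeR 4.0.16 in R 4.3.3 (filterByExpr, TMM, glmQLFit, glmQLFTest, genotype only) with Benjamini-Hochberg adjustment over 14550 genes at 0.05, and with DESeq2 1.42.0. The standard error is the size of the log2 fold change divided by the square root of F. The biological coefficient of variation was 0.211. The procedure was tested on simulated data. Floors for counts of 0 cover counting error only. Exon lengths and positions came from GENCODE on NCBIM37.

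The members and gene lists were chosen with earlier results of these data known. The text names the 9 members, *Rest*, key ligands and regulators, up to 4 genes of each list with the smallest p and a mean of at least 1 CPM, and the markers set for each cell type. *Hhat*, *Boc*, *Gpc3*, *Vil1* and *S100b* were added after their values were seen. The planned ratio of *Disp2* to *Disp1* was dropped because *Disp1* had no counts. Replicate numbers were checked for pairing by the correlation over genes of the differences between replicates 1 and 2 in RestpKO and control, which was 0.0652. A few genes of the lists, though counted in the totals, are not reported here by name.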

Additional observations from a re-analysis of the deposited data

How the results depend on the processing

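With 2 libraries per genotype the count of genes called depended on the fit and on single libraries, while the direction in *Disp2*, *Gli1* and *Gli3* was kept under all 11 alternatives (DESeq2 size factors, no TMM factor, 2 other filters, DESeq2, a replicate block, sex as a term and each library left out). *Ptch1* and *Smo* also kept their sign. Their log2 fold changes came as near to 0 as −0.001 for *Ptch1* without control replicate 2 and −0.01 for *Smo* without RestpKO replicate 1, so no direction is read from them. edgeR called 4 genes over the whole table, DESeq2 103, edgeR with total counts in place of TMM 1, and edgeR with sex as a term, which is the crossed pairing of the libraries, 247. The last fit and the one without TMM were chosen after seeing the data. Leaving out each library in turn gave between 1 and 514 calls, the lowest without RestpKO replicate 2 and the highest without RestpKO replicate 1, with 208 without control replicate 1 and 100 without control replicate 2. Of the pathway genes outside the 9 members, 0 were called in the main comparison, 1 with sex as a term, and 0 to 1 with each library left out. The log2 fold change of *Disp2* lay between 0.94 and 1.33 with each library left out. That of *Gli2* turned to 0.12 without RestpKO replicate 1 and was −0.20 without RestpKO replicate 2, and that of *Hhip* turned to 0.53 without control replicate 2. With the replicate block *Disp2* had a log2 fold change of 1.14 and edgeR called 4 genes, all 4 shared with the fit without it, so the block changed no call. The same-numbered libraries share only a number. In the order of levels per kilobase 2 of 7 neighbouring pairs held in every library, and 2 to 5 held with each library left out. The share of promoters with a REST-like match was 0.481%, against 0.113% with at most 3 mismatches and 3.56% with at most 5. The cause of these shifts was not tested. The planned ratio to *Disp1* could not be computed under any setting.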

Other observations

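*Hhip* had the largest spread relative to its mean within either genotype among the 7 members tested, and the genes closest to it over the 4 libraries were looked up after its values had been seen. Among genes with a mean of at least 2 CPM the 5 closest were *Myb*, *Car2*, *Epb4.2*, *Nfe2* and *Mir3064*, at distances from 0.705 to 0.856. *Myb*, a factor of blood progenitors, was at 4.40 and 2.69 CPM in RestpKO and 2.80 and 8.02 CPM in control. *Epb4.2*, a red cell membrane protein, was at 1.34 and 0.911 CPM in RestpKO and 1.49 and 6.20 CPM in control, and *Nfe2*, an erythroid and megakaryocyte factor, was at 1.21 and 0.729 CPM in RestpKO and 1.25 and 6.10 CPM in control. Control replicate 2 was highest in each of these genes, as it was in *Hhip*. These distances are several times those of the genes closest to *Disp2*, and the part of blood cells in the *Hhip* counts was not tested.

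The same search for *Gli3*, also added after seeing the data, among genes with a mean of at least 5 CPM gave *Pla2g7*, *Lrp1*, *Bach2*, *Dvl3* and *Tlr5*, at distances from 0.0866 to 0.123. *Lrp1*, an endocytic receptor of the family of *Lrp2*, was at 85.9 and 106 CPM in RestpKO and 171 and 177 CPM in control. The 5 genes closest to *Gli1* were *Ascc1*, *5830415F09Rik*, *AI846148*, *Mrpl11* and *Dennd6b*, at distances from 0.0207 to 0.0475, with log2 fold changes from 0.46 to 0.48.

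*Hhip* and *Ihh* were both higher in the 2 male libraries than in the 2 female libraries. *Hhip* was at 3.25 and 8.17 CPM in the male libraries (RestpKO replicate 1 and control replicate 2) and at 1.41 and 1.61 CPM in the female libraries (RestpKO replicate 2 and control replicate 1). *Ihh* had 4 and 9 counts in the male libraries and 0 and 1 in the female libraries, which are few counts. The share of all genes that split by sex in this way was not counted, so the split singles out neither gene. With 1 library per sex and genotype, sex and the single library cannot be told apart within a genotype, and the difference was not tested.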
